A study of Mus musculus with 10 samples.

Results

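The genes described here encode 9 proteins that osteoblasts and osteocytes lay down in bone matrix or make while mineralizing it: Spp1, Ibsp, Dmp1, Mepe, Bglap, Bglap2, Sparc, Ifitm5 and Col22a1. They were chosen by name from the 25239 genes of the count table, with earlier results of these data known, and all 9 had a row in it. Osteoblasts secrete a matrix made mostly of type I collagen, and the noncollagenous proteins laid into it bind calcium, hydroxyapatite, collagen or cell-surface integrins. Cells that become buried in the matrix turn into osteocytes and switch on Dmp1, Mepe and later Sost. In the calvaria, bone forms directly from suture mesenchyme at the edges of the skull plates, without a cartilage template for most of the vault.

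RNA was measured in 10 libraries of cells that flow cytometry had isolated from calvarial sutures at postnatal day 7 in mice, in a study of calvarial stem cells, craniosynostosis and mineralization. There were 5 libraries of DDR2-plus cells, named for the collagen receptor kinase DDR2, and 5 libraries of PSC cells, a name that stands unexplained in the labels. Both groups carry the label WT for genotype, whereas the protocol, which is shared by both, names Ctsk-Cre mice, in which the promoter of the cathepsin K gene drives Cre recombinase, and gives 5 mice. How the Cre was used, and which sort gates defined each population, is not given in the labels. Libraries were amplified from 1 ng of RNA each. The libraries are numbered 1 to 5 in each group, and the labels do not say whether equal numbers mean the same mice. The main test did not pair them. The labels do not tie libraries to animals, so the p-values cover the variation among these libraries alone, which may be technical.

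Total counts were between 49843470 and 62021992 in DDR2-plus libraries and between 43419129 and 58270419 in PSC libraries, a difference within the spread of the libraries (two-sided p = 0.111, exact permutation test). Values are given as CPM, counts brought to 1 library size with TMM factors, and ± marks the SD over the 5 libraries of a group. Of the 15416 genes with enough counts to test, 2926 (19.0%) were lower and 3096 (20.1%) higher in DDR2-plus at an adjusted p under 0.05 in the quasi-likelihood test of edgeR. These shares are the background for every count of called genes in a list below. When the libraries were scaled by their totals alone, the median change over every tested gene was 0.31 on the log2 scale, against 0.038 with TMM factors, and 1539 genes were lower and 5408 higher. Ddr2, the gene that names the DDR2-plus group, was itself lower there, at 112 ± 3.55 CPM in DDR2-plus libraries and 152 ± 10.7 CPM in PSC libraries (log2 fold change -0.44, edgeR adjusted p = 0.000165), so the group names used here rest on the labels alone. Chondrocyte markers stood apart between the groups, with all 8 of them higher in DDR2-plus and a summed level of 86671 to 119793 CPM in DDR2-plus libraries against 11771 to 26651 CPM in PSC libraries.

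All 9 bone matrix genes were lower in DDR2-plus cells than in PSC cells at an adjusted p under 0.05 by edgeR, beside the 19.0% of tested genes that were lower. Their median log2 fold change was -1.9, against 0.038 over all tested genes. The genes were lower by 1.91-fold for Sparc up to 5.42-fold for Spp1, and 7 of them were at least 2-fold lower. For 7 of the 9, every DDR2-plus library lay below every PSC library, which held for 14.6% of all tested genes, and the exceptions were Ibsp and Mepe. As the genes were chosen with earlier results of these data known, these comparisons with all tested genes are no test of the set. Together the 9 genes took 3.15% ± 0.379 of all counts in DDR2-plus libraries and 6.91% ± 0.676 in PSC libraries (SD, n = 5 each). In libraries of bulk cells, fewer cells that make these transcripts and less of each transcript per cell cannot be told apart. All 9 were also lower in 16 of the 18 other settings tried, and in the other two settings 8 were, Mepe being the exception.

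**Figure D1:**
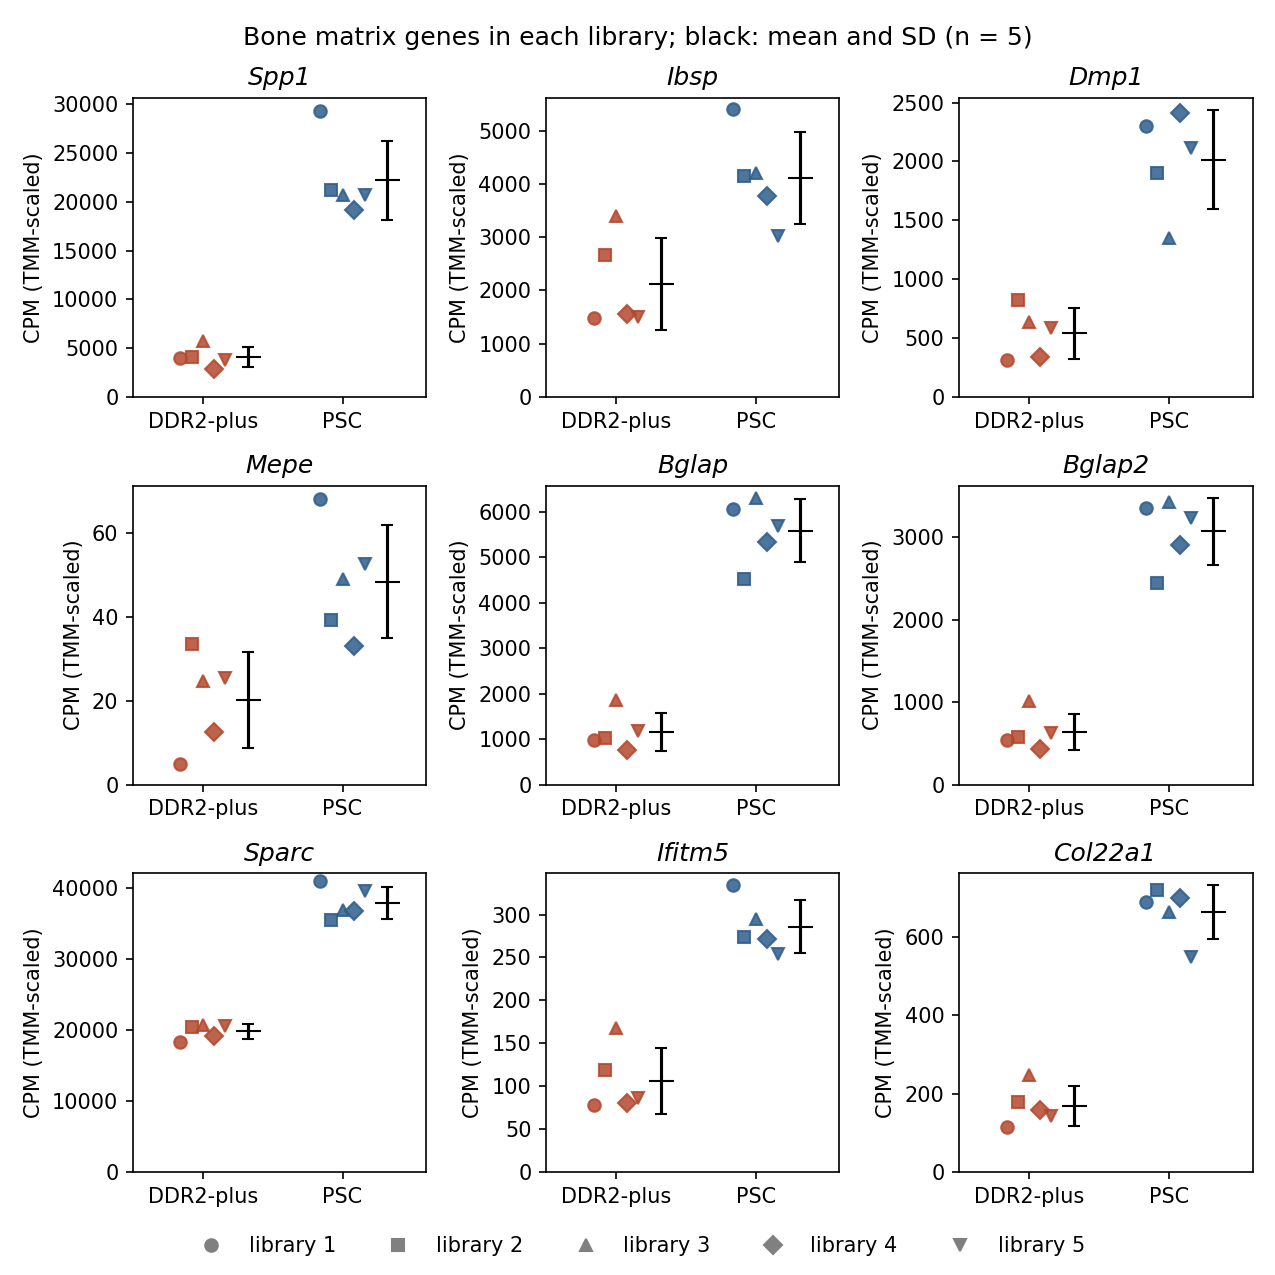
CPM for the 9 bone matrix genes in each library (points), with DDR2-plus left of PSC in each panel and the group mean and SD in black. The groups overlap for Ibsp and Mepe and are separate for the other 7 genes.

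Spp1, Ibsp, Dmp1 and Mepe belong to the SIBLING family, the small integrin-binding ligand N-linked glycoproteins. They are acidic phosphoproteins that bind mineral and carry an arginine-glycine-aspartate (RGD) motif, through which integrins hold the matrix. Their genes stand in a row on the plus strand of mouse chromosome 5, build mm10, in the order Dmp1, Ibsp, Mepe and Spp1. Each coding sequence held 1 in-frame RGD site. These stretches are shown because the shared motif is what joins 4 proteins of otherwise different sequence, and the 9 bases that encode it differ as a run between the genes. The capitals mark the RGD codons, and each stretch lies within 1 exon.
Dmp1, chr5:104212498-104212524: agcgagtccAGGGGTGACaacccagat
Ibsp, chr5:104310466-104310492: ggggagcctCGTGGCGACacttaccga
Mepe, chr5:104337533-104337559: cttctagtgAGGGGAGATaatgatgtc
Spp1, chr5:104439472-104439498: cccaacggcCGAGGTGATagcttggct
The site begins at codon 350 in Dmp1 and lies in exon 6 of 6. In Ibsp it begins at codon 293, in exon 7 of 7, and in Mepe at codon 183, in exon 3 of 3. In Spp1 it begins at codon 145, in exon 7 of 8.

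Bglap and Bglap2 are neighbouring copies of the osteocalcin gene on the minus strand of chromosome 3 (mm10). Osteocalcin is a small protein whose glutamate residues are carboxylated with the help of vitamin K so that it binds the calcium of hydroxyapatite. Over the 285 coding bases the copies differed at 4 positions, an identity of 98.6%. The further copy Bglap3 differed from Bglap at 13 positions and from Bglap2 at 9. The 90 bases from coding base 184 to 273 are shown because reads of 50 bases can tell the copies apart only where they differ, and the capitals mark the positions at which the 3 copies are not all alike.
Bglap, chr3:88383650-88383739: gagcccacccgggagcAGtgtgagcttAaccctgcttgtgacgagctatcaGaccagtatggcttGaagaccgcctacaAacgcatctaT
Bglap2, chr3:88377885-88377974: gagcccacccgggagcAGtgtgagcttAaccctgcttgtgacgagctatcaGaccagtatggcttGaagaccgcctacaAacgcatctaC
Bglap3, chr3:88368771-88368860: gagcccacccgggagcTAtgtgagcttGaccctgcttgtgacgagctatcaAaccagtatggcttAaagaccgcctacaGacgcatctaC
In this stretch Bglap and Bglap2 are alike but for the last base shown. Of all 50-base stretches of the Bglap transcript, 74.7% also occurred in the Bglap2 transcript, and 69.2% of those of Bglap2 occurred in Bglap. These are shares of single stretches, and as the libraries were read from both ends they are not shares of counts that cannot be assigned. How the authors' counting divided reads that the copies share is not known, so single values of Bglap and Bglap2 are uncertain.

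Promoter sequences from RefSeq (build GRCm38.p6), from 250 bases before to 50 after a gene's start, were found for 7 of the 9 genes. RUNX factors, which include the osteoblast regulator RUNX2, recognise a core written ACCACA, or TGTGGT on the other strand. The 7 genes had 9 listed promoters, of which 5 held at least 1 such match, 1 each of Spp1, Dmp1, Mepe, Bglap and Sparc, as did 16.8% of all 32817 promoters in the table. The other listed promoters of Spp1 and Dmp1 held none. Spp1 is shown as the gene with the largest fold change of the 9, Bglap as an osteocalcin gene, Dmp1 as the osteocyte gene, and Ibsp as a gene whose window held no match. The capitals mark the match.
Spp1, chr5:104434861-104435160, plus strand: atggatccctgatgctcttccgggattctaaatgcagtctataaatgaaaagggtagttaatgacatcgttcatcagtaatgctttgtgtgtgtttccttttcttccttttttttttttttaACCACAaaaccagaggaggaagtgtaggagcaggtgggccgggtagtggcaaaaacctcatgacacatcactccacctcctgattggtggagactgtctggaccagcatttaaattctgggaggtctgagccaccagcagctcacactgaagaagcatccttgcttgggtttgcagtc
Bglap, chr3:88384417-88384716, minus strand: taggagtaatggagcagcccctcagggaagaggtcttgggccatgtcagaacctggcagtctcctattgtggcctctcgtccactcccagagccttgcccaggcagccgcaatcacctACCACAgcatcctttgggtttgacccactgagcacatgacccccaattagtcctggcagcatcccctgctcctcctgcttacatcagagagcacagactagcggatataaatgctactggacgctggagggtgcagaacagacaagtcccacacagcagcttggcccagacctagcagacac
Dmp1 (the second of its 2 listed starts), chr5:104202367-104202666, plus strand: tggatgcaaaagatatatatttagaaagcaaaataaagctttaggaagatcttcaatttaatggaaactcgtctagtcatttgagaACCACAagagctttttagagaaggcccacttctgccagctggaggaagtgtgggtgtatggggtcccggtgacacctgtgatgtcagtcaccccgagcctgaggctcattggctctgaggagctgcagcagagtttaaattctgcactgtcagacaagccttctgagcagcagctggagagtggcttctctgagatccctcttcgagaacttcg
Ibsp, chr5:104299037-104299336, plus strand: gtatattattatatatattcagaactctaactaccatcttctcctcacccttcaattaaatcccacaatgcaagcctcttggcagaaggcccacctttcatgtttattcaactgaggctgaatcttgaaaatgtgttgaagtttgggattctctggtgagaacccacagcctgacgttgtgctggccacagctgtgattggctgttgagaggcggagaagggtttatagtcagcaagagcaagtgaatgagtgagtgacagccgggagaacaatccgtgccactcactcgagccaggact
The match began 128 bases before the start in Spp1, 132 bases before it in Bglap and 164 bases before it in Dmp1. Mepe had matches 118 and 80 bases before its start, and Sparc had its match 35 bases after the start. A match of these letters is a description of the window and no measure of binding. Runx2 itself was at 116 ± 6.93 CPM in DDR2-plus cells and 121 ± 12.1 CPM in PSC cells, a log2 fold change of -0.05 with an SE of 0.0788 that did not pass the test (edgeR adjusted p = 0.627).

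Spp1 (chr5:104435118-104441050) encodes osteopontin, which anchors cells to mineral and, when phosphorylated, restrains the growth of crystals. It had 3963, 4094, 5730, 2880 and 3808 CPM in DDR2-plus libraries 1 to 5, against 29291, 21210, 20631, 19144 and 20681 CPM in PSC libraries 1 to 5. The groups were far apart, and PSC 1 stood above the other PSC libraries. The mean was 4095 ± 1031 CPM in DDR2-plus cells and 22191 ± 4043 CPM in PSC cells (SD, n = 5 each), a log2 fold change of -2.44 with an SE of 0.17 (edgeR adjusted p = 8.04e-07). Of the exonic bases of Spp1, 18.8% are shared with the gene model Gm42793 on the same strand, so some of its counts could belong to that model. Gm42793 has no row in the count table, and the annotation used for the counting is not known.

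Ibsp (chr5:104299171-104311469) encodes bone sialoprotein, which is known for seeding hydroxyapatite at sites where mineralization starts. Its level was 1484, 2661, 3400, 1558 and 1509 CPM in DDR2-plus libraries, against 5403, 4141, 4207, 3768 and 3016 CPM in PSC libraries. DDR2-plus 3 lay above PSC 5, and the other 4 DDR2-plus libraries lay below every PSC library. The log2 fold change was -0.95 with an SE of 0.237 (edgeR adjusted p = 0.00656), from 2122 ± 870 CPM in DDR2-plus cells and 4107 ± 865 CPM in PSC cells.

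Ibsp was also set against Spp1 within each library, as a description without a test. Counts of Ibsp were 0.374 to 0.65 of those of Spp1 in DDR2-plus libraries (median 0.541), against 0.146 to 0.204 in PSC libraries (median 0.195), with no overlap. Of all tested genes, 87.8% were likewise higher relative to Spp1 in every DDR2-plus library than in every PSC library, so nothing particular to Ibsp is read from this. Both genes are also known from hypertrophic chondrocytes, the last stage of cartilage cells before bone replaces them, and Spp1 from osteoclasts and macrophages. Of 6 markers of hypertrophic chondrocytes, 3 were higher in DDR2-plus and 3 did not pass the test, and their summed level was 3574 to 4848 CPM in DDR2-plus libraries against 1869 to 2951 CPM in PSC libraries. Col10a1, the collagen that defines these cells, was at 1861 ± 237 CPM in DDR2-plus cells and 240 ± 107 CPM in PSC cells (log2 fold change 2.95, edgeR adjusted p = 1.99e-06). The part of these cells in the levels of Ibsp and Spp1 was not tested.

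Of 9 osteoclast markers, 4 had enough counts to test, of which Mmp9 was higher and Acp5, Ctsk and Itgb3 were lower in DDR2-plus. Their summed level was 660.9 to 1010 CPM in DDR2-plus libraries and 495.5 to 731.7 CPM in PSC libraries, and Mmp9 made up 673 ± 116 CPM of it in DDR2-plus and 243 ± 95 CPM in PSC. The fusion gene Dcstamp had 0 counts in PSC libraries, and Calcr, Ocstamp, Atp6v0d2 and Oscar were too low to test. Acp5, Mmp9 and Itgb3 are counted again in the lists of enzymes and receptors below. Ctsk is also the gene whose promoter drives the Cre named in the protocol. The 4 tested genes are therefore not read as a signal of osteoclasts alone. The 9 markers of macrophages and leukocytes summed to 15.5 to 32.1 CPM in DDR2-plus libraries and 9.46 to 21.5 CPM in PSC libraries. Of the 5 tested, Lyz2 was higher in DDR2-plus (log2 fold change 0.93, edgeR adjusted p = 0.0494), a call kept in 9 of the 18 other settings, and the others did not pass the test. The part of osteoclasts and macrophages in the level of Spp1 was not tested.

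Dmp1 (chr5:104202613-104214102) encodes dentin matrix protein 1, a collagen-binding protein of osteocytes that takes part in mineralization and phosphate balance. It had 315.4, 825.5, 634.8, 342.6 and 582.9 CPM in DDR2-plus libraries, against 2303, 1899, 1352, 2407 and 2112 CPM in PSC libraries. The groups did not overlap, and DDR2-plus libraries spread over more than a 2-fold range. Dmp1 averaged 540 ± 213 CPM in DDR2-plus cells and 2015 ± 418 CPM in PSC cells, a log2 fold change of -1.9 with an SE of 0.253 (edgeR adjusted p = 7.51e-05).

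Mepe (chr5:104325329-104338611) encodes matrix extracellular phosphoglycoprotein, an osteocyte protein whose acidic fragment inhibits mineralization. Its level was 4.85, 33.7, 24.8, 12.5 and 25.4 CPM in DDR2-plus libraries, against 68.2, 39.3, 49.2, 33.2 and 52.6 CPM in PSC libraries. DDR2-plus 2 lay just above PSC 4, and DDR2-plus 1 was the lowest of all. The mean was 20.3 ± 11.4 CPM in DDR2-plus cells and 48.5 ± 13.5 CPM in PSC cells, and the log2 fold change of -1.26 had an SE of 0.394 (edgeR adjusted p = 0.0227). The call was lost without PSC 1, with a log2 fold change of -1.11 (edgeR adjusted p = 0.0543), and without DDR2-plus 4, with -1.13 (edgeR adjusted p = 0.0573). Over all alternatives its adjusted p ran from 0.00642 to 0.0573.

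Within 500 kb either side of the start of Spp1, the table held 13 protein-coding genes, 4 of them the genes above. Of the other 9, 6 could be tested, and 2 of these were lower in DDR2-plus. They were Nudt9, with a log2 fold change of -0.36 (edgeR adjusted p = 0.00681), and Pkd2, which starts 24.3 kb beyond Spp1, with -0.61 (edgeR adjusted p = 0.000198). Sparcl1, a relative of Sparc, stood at 146 ± 51.2 CPM in DDR2-plus cells and 139 ± 23.5 CPM in PSC cells and did not pass the test, nor did Hsd17b11, Gm17660 and Zfp951. The dentin gene Dspp, the fifth SIBLING gene, lies beside Dmp1 and had 0 counts in all 10 libraries, which allows up to 0.00998 CPM over the DDR2-plus group and 0.0134 CPM over the PSC group (3 counts, counting error only). Of 6 relatives of the family, Dspp included, only the enamel-matrix gene Ambn had enough counts to test, and it was at 4.3 ± 2.55 CPM in DDR2-plus cells and 12.3 ± 2.24 CPM in PSC cells (log2 fold change -1.52, edgeR adjusted p = 0.00498).

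**Figure D2:**
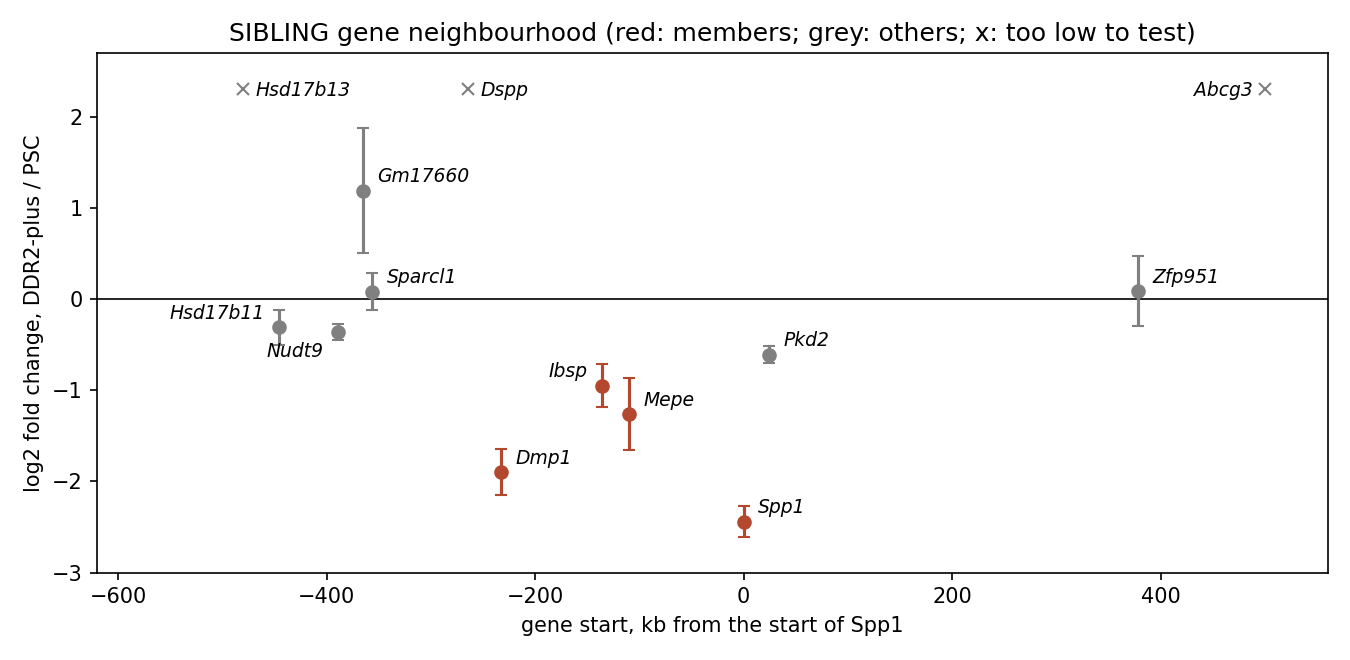
The log2 fold change of DDR2-plus over PSC (vertical axis, bars are 1 SE) of protein-coding genes by the distance of their start from the start of Spp1 in kb. Red points are Dmp1, Ibsp, Mepe and Spp1, grey points are other tested genes, and crosses at the top mark genes too low to test, with no fold change; the 4 red points lie lowest, from -2.44 to -0.95.

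Both osteocalcin genes were lower in DDR2-plus by almost the same factor. Bglap (chr3:88383501-88384464) had 987.4, 1034, 1871, 773.3 and 1174 CPM in DDR2-plus libraries, against 6063, 4535, 6303, 5330 and 5693 CPM in PSC libraries. Bglap2 (chr3:88377736-88378699) had 544.0, 576.4, 1011, 430.8 and 628.1 CPM in DDR2-plus libraries, against 3348, 2443, 3421, 2902 and 3228 CPM in PSC libraries. The copies ranked the DDR2-plus libraries alike, with DDR2-plus 3 highest and DDR2-plus 4 lowest, and in each the groups were apart. Bglap averaged 1168 ± 418 CPM in DDR2-plus cells and 5585 ± 694 CPM in PSC cells, with a log2 fold change of -2.26 and an SE of 0.2 (edgeR adjusted p = 3.2e-06). Bglap2 averaged 638 ± 221 CPM in DDR2-plus cells and 3068 ± 402 CPM in PSC cells, with a log2 fold change of -2.27 and an SE of 0.196 (edgeR adjusted p = 2.68e-06).

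Because reads of the copies cannot all be told apart, Bglap, Bglap2 and Bglap3 were also summed. The sum was 1956 ± 693 CPM in DDR2-plus cells and 9377 ± 1200 CPM in PSC cells, a log2 ratio of the means of -2.26. The ratio of Bglap to Bglap2 counts was 1.79 to 1.87 in DDR2-plus libraries and 1.76 to 1.86 in PSC libraries, and that of Bglap3 to Bglap2 was 0.227 to 0.239 in DDR2-plus libraries and 0.228 to 0.241 in PSC libraries. These ratios overlapped, as counted by the authors.

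Sparc (chr11:55394500-55423183) encodes osteonectin, a secreted glycoprotein that binds collagen and calcium and is made by many connective tissue cells as well as osteoblasts. Its level was 18290, 20378, 20649, 19191 and 20542 CPM in DDR2-plus libraries, against 40915, 35432, 36891, 36802 and 39537 CPM in PSC libraries. These were the tightest values of the 9 genes, with a coefficient of variation of 5.21% in DDR2-plus and 5.91% in PSC. The mean of 19810 ± 1031 CPM in DDR2-plus against 37916 ± 2241 CPM in PSC gave a log2 fold change of -0.94 with an SE of 0.0608 (edgeR adjusted p = 4.73e-07).

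Ifitm5 (chr7:140948958-140950291) encodes BRIL, a membrane protein known mainly from mineralizing osteoblasts, and its human counterpart is mutated in a form of brittle bone disease. It had 78.5, 118.9, 168.5, 80.8 and 85.9 CPM in DDR2-plus libraries, against 334.7, 273.4, 295.1, 271.2 and 254.4 CPM in PSC libraries. The groups did not overlap, and DDR2-plus 3 was the nearest to PSC. Ifitm5 averaged 106.5 ± 38.3 CPM in DDR2-plus cells and 285.7 ± 30.9 CPM in PSC cells, a log2 fold change of -1.42 with an SE of 0.193 (edgeR adjusted p = 8.68e-05). Of its exonic bases, 29.7% are shared with the gene model Gm45717 on the same strand, so some of its counts could belong to that model. Gm45717 has no row in the count table either.

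Col22a1 (chr15:71795795-72034227) encodes a fibril-associated collagen described at tissue junctions, among them that of muscle and tendon. Its level was 114.4, 179.4, 249.3, 158.7 and 143.8 CPM in DDR2-plus libraries, against 688.9, 720.8, 663.7, 698.6 and 548.4 CPM in PSC libraries. Every PSC library was more than 2-fold above every DDR2-plus library. The mean was 169 ± 50.7 CPM in DDR2-plus cells and 664 ± 67.8 CPM in PSC cells, a log2 fold change of -1.97 with an SE of 0.173 (edgeR adjusted p = 3.01e-06). Of 7 tendon markers, 5 were lower and 2 higher in DDR2-plus, and Tnmd, a membrane protein of tendon cells, was at 75.9 ± 23.1 CPM in DDR2-plus cells and 1450 ± 99.4 CPM in PSC cells (log2 fold change -4.26, edgeR adjusted p = 6.24e-08). Summed, the 7 tendon markers spanned 6514 to 7910 CPM in DDR2-plus libraries and 6448 to 8015 CPM in PSC libraries. Most of this sum came from the 2 higher genes, Fmod (DDR2-plus mean 3546, PSC mean 2506 CPM) and Egr1 (DDR2-plus mean 3607, PSC mean 2090 CPM). The 5 lower genes ranged from 2.37-fold lower for Mkx to 20.5-fold lower for Kera, which the sums do not show. Over the 7 markers the median log2 fold change was -3.44. The part of tendon cells in the level of Col22a1 was not tested.

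**Figure D3:**
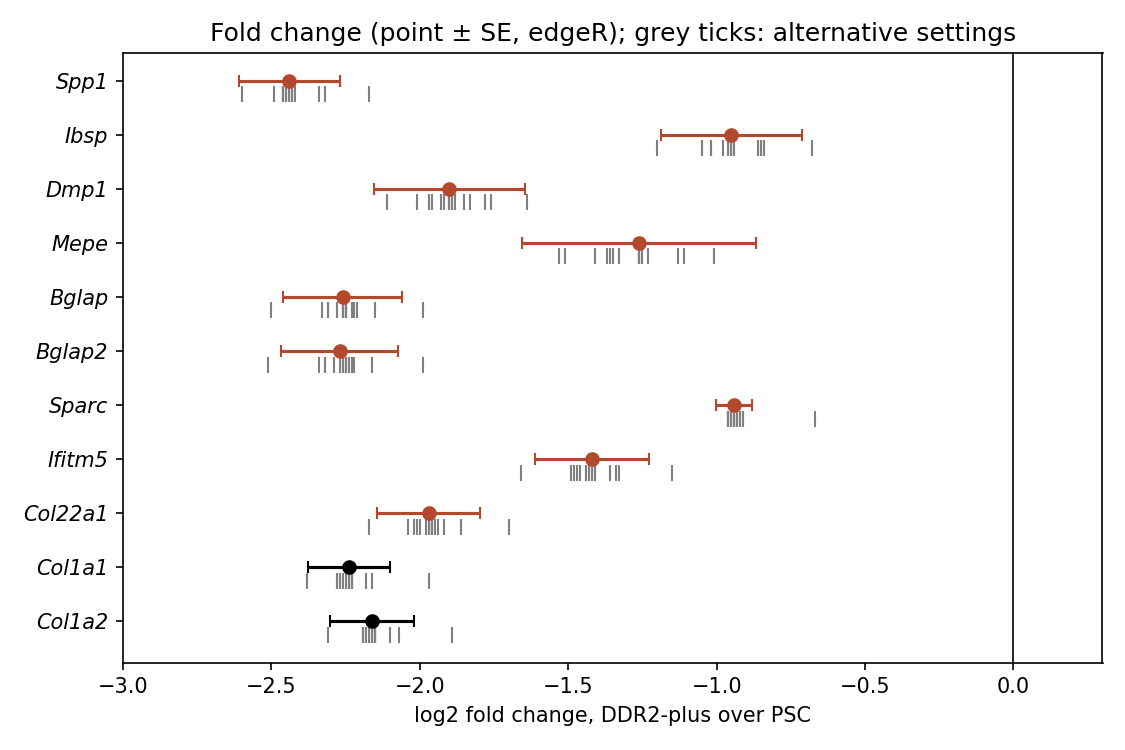
The log2 fold change of DDR2-plus over PSC for each of the 9 genes and, in black, Col1a1 and Col1a2, with bars of 1 SE from the edgeR test. Grey ticks are the other settings. Values of the 9 genes run from -2.44 for Spp1 to -0.94 for Sparc, and Mepe has the widest bar, an SE of 0.394.

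The order of the libraries within a group was tallied over the 9 genes, with no test, Bglap and Bglap2 sharing reads. DDR2-plus 3 was the highest of its group for 7 of the 9 genes, and DDR2-plus 2 was the highest for Dmp1 and Mepe, the genes tied to osteocytes. The lowest DDR2-plus library was DDR2-plus 1 for 6 genes and DDR2-plus 4 for Spp1, Bglap and Bglap2. Among PSC libraries, PSC 1 was the highest for Spp1, Ibsp, Mepe, Sparc and Ifitm5. Relative spread was largest for Mepe, with a coefficient of variation of 56.5% in DDR2-plus and 27.8% in PSC. Ibsp followed with 41.0% in DDR2-plus and 21.1% in PSC, and Dmp1 with 39.5% in DDR2-plus and 20.8% in PSC.

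To set the levels of the 9 genes side by side, CPM was divided by the length of the longest coding transcript, giving CPM per kb. Spread here and in the next paragraph is the SD of each gene over the libraries of a group. Genes were not compared library by library, so an overlap of spreads does not mean that their order differs between libraries. The order of the mean levels was the same in both groups. Sparc led with 8613 ± 448 CPM per kb in DDR2-plus and 16485 ± 974 CPM per kb in PSC, followed by Spp1 with 2717 ± 684 CPM per kb in DDR2-plus and 14725 ± 2683 CPM per kb in PSC, and by Bglap with 2654 ± 951 CPM per kb in DDR2-plus and 12693 ± 1576 CPM per kb in PSC. Spp1 and Bglap did not differ beyond their spread in either group, and neither did Sparc and Spp1 in PSC, whereas in DDR2-plus Sparc stood clear of Spp1. Bglap2 had 1355 ± 469 CPM per kb in DDR2-plus and 6515 ± 854 CPM per kb in PSC, and Ibsp had 1026 ± 421 CPM per kb in DDR2-plus and 1986 ± 418 CPM per kb in PSC, so that this pair overlapped in DDR2-plus only.

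The osteocyte gene Dmp1 stood below Ibsp in both groups, at 195 ± 77.1 CPM per kb in DDR2-plus and 729 ± 151 CPM per kb in PSC. Ifitm5 came next with 139 ± 50.1 CPM per kb in DDR2-plus and 374 ± 40.4 CPM per kb in PSC, within the spread of Dmp1 in DDR2-plus. Col22a1 had 19.2 ± 5.75 CPM per kb in DDR2-plus and 75.4 ± 7.7 CPM per kb in PSC. Mepe was last, at 12 ± 6.8 CPM per kb in DDR2-plus, within the spread of Col22a1 there, and 28.8 ± 8.0 CPM per kb in PSC.

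**Figure D4:**
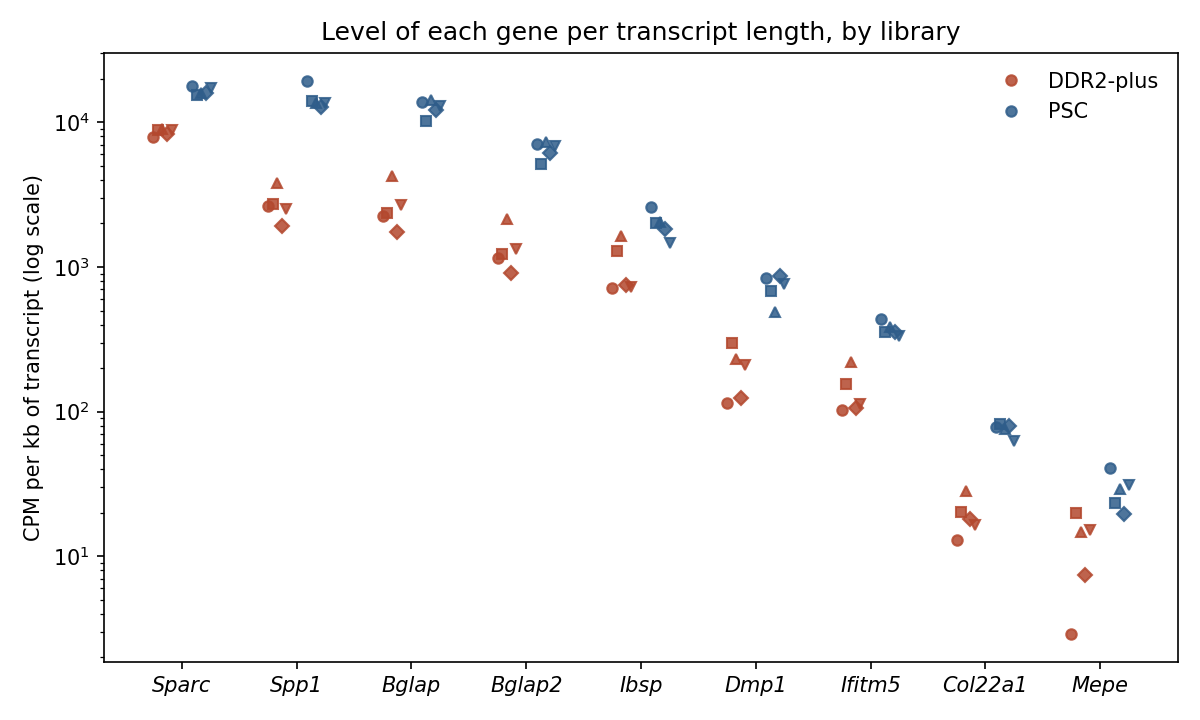
CPM per kb of the longest coding transcript on a log axis in each library (points), for the 9 genes in DDR2-plus and PSC. Sparc is highest in both groups and Mepe lowest, and the gap between the groups is narrowest for Sparc and Ibsp.

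Type I collagen, the bulk of bone matrix, was lower in DDR2-plus as well. Col1a1, which encodes its first chain, was at 29118 ± 6849 CPM in DDR2-plus cells and 137874 ± 8114 CPM in PSC cells (log2 fold change -2.24, edgeR adjusted p = 4.35e-07). Dividing each gene by Col1a1 within a library shows which genes were lower by more or less than this collagen, as a description without a test. Relative to Col1a1, Bglap differed between the groups by -0.04 on the log2 scale, Bglap2 by -0.043 and Spp1 by -0.18, and the libraries of the groups overlapped. Sparc relative to Col1a1 was higher in every DDR2-plus library, by 1.34, and so were Ibsp, by 1.26, and Ifitm5, by 0.79. Mepe, by 0.78, Dmp1, by 0.31, and Col22a1, by 0.26, overlapped. The background is wide here, since 86.6% of all tested genes were higher relative to Col1a1 in every DDR2-plus library than in every PSC library, and 3 of the 9 genes were.

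**Figure D5:**
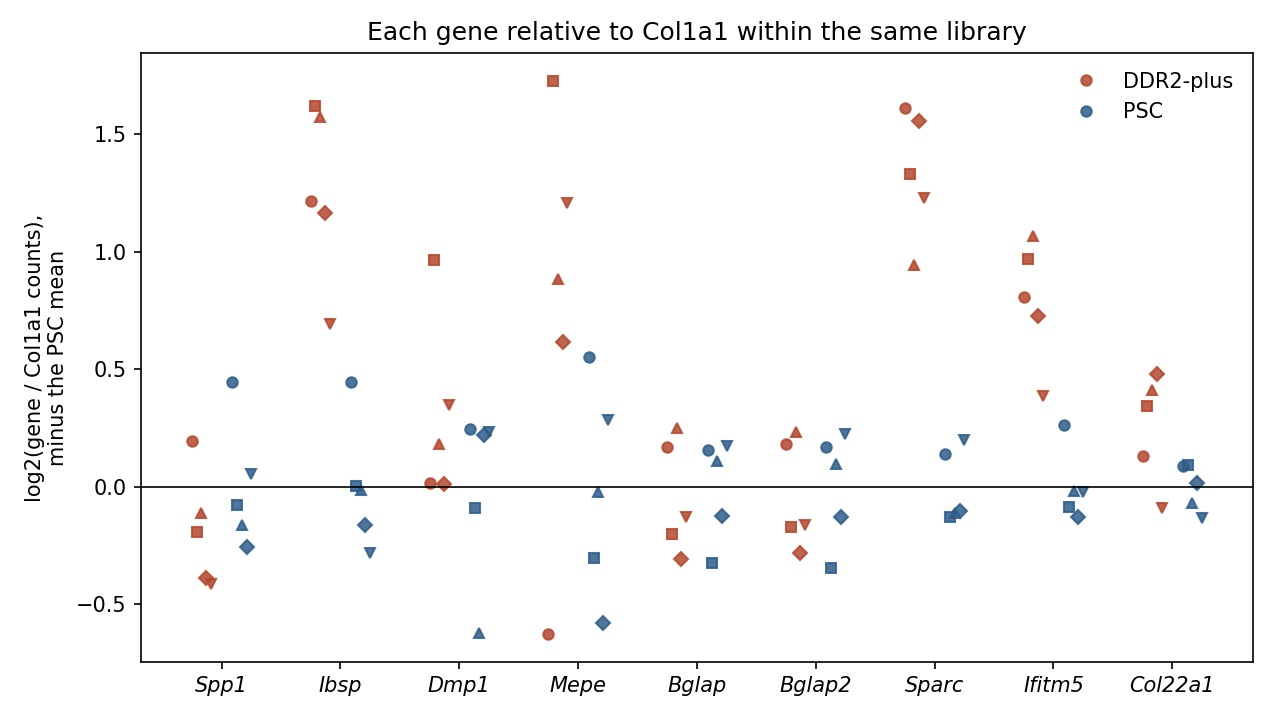
The log2 ratio of each gene's counts to those of Col1a1 in each library (points), minus the PSC mean of that gene, with DDR2-plus left of PSC. Spp1, Bglap and Bglap2 overlap between the groups, whereas Ibsp, Sparc and Ifitm5 are higher in every DDR2-plus library.

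Other genes of bone cells were counted from lists. Of 20 osteoblast genes, 12 were lower and 3 higher in DDR2-plus, beside 19.0% and 20.1% of all tested genes. The list had a median log2 fold change of -0.775. The 3 higher were Smpd3, Pth1r and Panx3. Their log2 fold changes were 1.16 (edgeR adjusted p = 1.68e-05), 0.66 (edgeR adjusted p = 0.00246) and 1.62 (edgeR adjusted p = 1.54e-05). Panx3, Alpl and Phospho1 were also counted among the hypertrophic chondrocyte markers above, so these lists are not separate. Beside Col1a1, the adhesion molecule Cdh11 was at 173 ± 27.6 CPM in DDR2-plus cells and 528 ± 32.6 CPM in PSC cells (log2 fold change -1.61, edgeR adjusted p = 4.55e-07). Ank, which moves the mineralization inhibitor pyrophosphate out of cells, was at 134 ± 18.5 CPM in DDR2-plus cells and 449 ± 78.3 CPM in PSC cells (log2 fold change -1.74, edgeR adjusted p = 9.73e-07). Alpl, the phosphatase that removes pyrophosphate, was at 515 ± 115 CPM in DDR2-plus cells and 558 ± 88.8 CPM in PSC cells and did not pass the test (log2 fold change -0.11, edgeR adjusted p = 0.577). The osteoblast transcription factor Sp7 was lower in DDR2-plus by 1.77-fold (edgeR adjusted p = 0.000429).

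Of 14 tested osteocyte genes other than the 9, 10 were lower and 2 higher in DDR2-plus, beside 19.0% and 20.1% of all tested genes. The list had a median log2 fold change of -0.884. The 2 higher were Tsc22d3, with a log2 fold change of 0.94 (edgeR adjusted p = 6.87e-05), and Tnfrsf11b, with 0.57 (edgeR adjusted p = 0.00626). Kcnk2 (edgeR adjusted p = 0.141) and Fam20c (edgeR adjusted p = 0.583) did not pass the test. Sost, the osteocyte inhibitor of Wnt signalling, was at 5.89 ± 1.82 CPM in DDR2-plus cells and 32.9 ± 13.9 CPM in PSC cells (log2 fold change -2.48, edgeR adjusted p = 4.42e-05). Phex, an endopeptidase that cleaves the acidic fragments of SIBLING proteins, was at 107 ± 34.5 CPM in DDR2-plus cells and 247 ± 36.3 CPM in PSC cells (log2 fold change -1.21, edgeR adjusted p = 0.000309). The early osteocyte membrane protein Pdpn was at 39.8 ± 5.11 CPM in DDR2-plus cells and 78.8 ± 7.35 CPM in PSC cells (log2 fold change -0.98, edgeR adjusted p = 9.99e-06). Gja1, the gap-junction protein of osteocyte processes, was lower in DDR2-plus by 1.84-fold (edgeR adjusted p = 9.99e-06).

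The wider matrix of bone changed in both directions. Of 14 other noncollagenous matrix genes, 9 were lower and 4 higher in DDR2-plus, beside 19.0% and 20.1% of all tested genes. The list had a median log2 fold change of -1.3. Bglap3 is among the 9 lower matrix genes, and as a copy that can share reads with Bglap and Bglap2 it is not separate from them. Thbs2, a thrombospondin, was at 329 ± 52.5 CPM in DDR2-plus cells and 1382 ± 154 CPM in PSC cells (log2 fold change -2.07, edgeR adjusted p = 2.99e-07), and the small proteoglycan Dcn was lower by 3.28-fold (edgeR adjusted p = 1.26e-06). In the other direction, Thbs1 was at 3372 ± 460 CPM in DDR2-plus cells and 1097 ± 181 CPM in PSC cells (log2 fold change 1.62, edgeR adjusted p = 1.26e-06). Omd, a keratan sulfate proteoglycan of bone, was at 636 ± 68.9 CPM in DDR2-plus cells and 226 ± 32.4 CPM in PSC cells (log2 fold change 1.49, edgeR adjusted p = 1.04e-06).

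The enzymes that modify or cut these proteins did not all go one way. Of 16, 9 were lower and 2 higher in DDR2-plus, beside 19.0% and 20.1% of all tested genes. The list had a median log2 fold change of -0.657. Fam20c, the Golgi kinase that phosphorylates SIBLING proteins, was at 316 ± 14.3 CPM in DDR2-plus cells and 300 ± 45.4 CPM in PSC cells (log2 fold change 0.07, edgeR adjusted p = 0.583). Its partner Fam20a was at 12.5 ± 1.75 CPM in DDR2-plus cells and 44.4 ± 4.05 CPM in PSC cells (log2 fold change -1.83, edgeR adjusted p = 4.36e-07). Ggcx, the carboxylase of osteocalcin, was at 110 ± 17.7 CPM in DDR2-plus cells and 117 ± 10.6 CPM in PSC cells and did not pass the test (edgeR adjusted p = 0.535). Bmp1, which processes procollagen and Dmp1, was lower by 2.68-fold (edgeR adjusted p = 4.55e-07), and the proprotein convertase Pcsk5 by 4.16-fold (edgeR adjusted p = 3.89e-06).

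Among 11 tested receptors of these proteins, 5 were lower in DDR2-plus, beside 19.0% of all tested genes, and 6 did not pass the test. The list had a median log2 fold change of -0.487. Cd44, a hyaluronan receptor that also binds osteopontin, was at 40.0 ± 13.2 CPM in DDR2-plus cells and 180 ± 15.2 CPM in PSC cells (log2 fold change -2.17, edgeR adjusted p = 4.34e-06). The integrin chain Itgb3, part of the RGD receptor of osteoclasts, was lower by 2.66-fold (edgeR adjusted p = 0.000233), Itgb5 by 1.65-fold (edgeR adjusted p = 0.0014) and Itgb1 by 1.5-fold (edgeR adjusted p = 1.68e-05). Itga9 and Itga5 did not pass the test, with log2 fold changes of -0.4 (edgeR adjusted p = 0.0802) and 0.13 (edgeR adjusted p = 0.351).

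Relatives of Sparc and Ifitm5 were counted in the same way. In the SPARC family 1 of 7 was higher, 1 was lower and 5 did not pass the test in DDR2-plus, with a median log2 fold change of 0.054, shares that are below those of all tested genes (19.0% lower and 20.1% higher). Fstl1 was lower by 1.9-fold (edgeR adjusted p = 5.85e-06) and Spock2 higher by 1.81-fold (edgeR adjusted p = 0.000594). Of 6 tested genes of the IFITM list, 4 were lower and 1 higher. Ifitm3, an antiviral membrane protein, was at 44.2 ± 12.3 CPM in DDR2-plus cells and 188 ± 17.8 CPM in PSC cells (log2 fold change -2.09, edgeR adjusted p = 1.24e-06), and Fkbp11, a reported binding partner of Ifitm5, was lower by 2.84-fold (edgeR adjusted p = 1.7e-06). Ifitm10 was higher by 3.57-fold (edgeR adjusted p = 1.04e-05).

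Of 8 fibril-associated and related collagens other than Col22a1, 3 were higher, 3 lower and 2 did not pass the test in DDR2-plus. Over all tested genes, 20.1% were higher and 19.0% lower. The 3 higher collagens were the chains of type IX collagen, which belongs to cartilage. Col9a1 was at 6139 ± 830 CPM in DDR2-plus cells and 1098 ± 353 CPM in PSC cells (log2 fold change 2.48, edgeR adjusted p = 2.47e-06), Col9a2 was higher by 5.12-fold (edgeR adjusted p = 3.07e-06) and Col9a3 by 5.48-fold (edgeR adjusted p = 3.96e-06). Col12a1, which lines type I collagen fibrils, was lower by 1.72-fold (edgeR adjusted p = 2.74e-06). Chondrocyte markers, given above, moved with these collagens.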

How the data were processed

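Bulk RNA-seq of 10 libraries, 5 of each sorted population, was used. Per the labels' protocols, cDNA was amplified with SMART-Seq v4 from 1 ng of RNA, and Nextera XT libraries, which keep no strand, were sequenced from both ends with 50 cycles. The build was mm10 and DESeq was used, per the submitters' processing notes, whereas the aligner, counter and annotation were not given in the sources used here. Deposited by the authors were raw whole-number counts for each gene symbol, with a different total in each library.

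Counts went into the quasi-likelihood test of edgeR 4.0.16 (R 4.3.3) over all 15416 genes kept by filterByExpr, with TMM factors, no covariates and Benjamini-Hochberg adjustment at 0.05. Fold changes are DDR2-plus over PSC. The test was also tested on simulated data. There edgeR recovered 33.8% of 1.5-fold, 49.1% of 2-fold and 78.8% of 4-fold changes, so a gene that did not pass the test may still differ. In the simulation, unchanged genes made up 2.78% of the calls of edgeR, 24.7% of those of DESeq2 and 1.01% of those of limma-voom. DESeq2 1.42.0 and limma-voom (limma 3.58.1) served as alternatives, beside other scalings, filters, the replicate block and leaving out each library. One count was worth 0.0146 to 0.0249 CPM, and amplified reads are not independent molecules. No libraries of a group agreed within sampling noise (lowest chi-square per degree of freedom 39.2).

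Positions, exons and transcript lengths come from GENCODE M21 on GRCm38, the same build as mm10. The 9 genes and all lists were chosen with earlier results of these data known. All 9 are named, with up to 4 called genes of smallest p and up to 2 uncalled genes of highest CPM eligible from each list. Bglap3 was named as a copy, and the tested neighbours of Spp1 by position. Smpd3, Pth1r, Tsc22d3, Tnfrsf11b, Fmod and Egr1 were named outside that rule, as higher genes of lists that were mostly lower. So were Mkx, Phospho1, Ddr2 and genes too low to test.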

Additional observations from a re-analysis of the deposited data

Results flagged for a closer look

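In 5 of 104 groups of 5 libraries, 1 library stood far from the other 4, which chance gives in about 1 in 20 groups. Spp1 was at 29291 CPM in PSC 1, against 19144 to 21210 CPM in the other PSC libraries, and without PSC 1 its log2 fold change was -2.32. Ank, the pyrophosphate transporter, was at 585 CPM in PSC 1, against 391 to 437 CPM in the other PSC libraries. Fam20a, the partner of the SIBLING kinase, was at 51.4 CPM in PSC 1, against 41.2 to 43.8 CPM in the other PSC libraries. Ifitm10 was at 47.1 CPM in DDR2-plus 3, against 58.9 to 61.0 CPM in the other DDR2-plus libraries. Col20a1 was at 0.0491 CPM in DDR2-plus 3, against 0.776 to 0.939 CPM in the other DDR2-plus libraries.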

How the results depend on the processing

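Over 18 alternative settings, 160 of 162 values of the 9 genes kept their direction and their side of the threshold, and none of the 162 reversed. The exceptions were both of Mepe, whose call was lost without PSC 1 and without DDR2-plus 4, and whose log2 fold change ran from -1.53 to -1.01 when each library was left out in turn. Scaling by library size alone put 5408 genes higher and 1539 lower in DDR2-plus, against 3096 and 2926 with TMM factors, as that scaling moves the median of all tested genes to 0.31 on the log2 scale, and the 9 genes were still lower, with Ibsp at -0.68 and Sparc at -0.67. Leaving out each library gave 2594 to 3191 genes higher and 2582 to 2887 lower. Libraries of the same number were not taken as pairs, since the correlation of their deviations passed 0.1 in 1 of 5 pairs, although 3 of 5 libraries of each group correlated best with their own number, a hint from the data of some pairing. With the replicate block, 3054 genes were higher and 2688 lower, Mepe was at -1.41 and no call of the 9 genes changed. Of 720 counts of genes higher or lower in a list, 39 moved by over 1.5 times, among them, with library size alone, those of genes higher in the SPARC family (3), the enzymes (4), the receptors (1), the osteoblast genes (5) and the macrophage markers (3). Of 770 values of 43 other genes eligible from the lists, 17 newly passed the threshold, 6 of them of Atf4, and none reversed. Depth limits Dspp and the other genes at 0 counts, and shared reads limit Bglap and Bglap2.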

Other observations

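Of 5 markers of pericytes and smooth muscle, 2 were higher and 2 lower in DDR2-plus, with a summed level of 825.6 to 1069 CPM in DDR2-plus libraries and 609.9 to 668.6 CPM in PSC libraries. Of 7 tested markers of skeletal muscle, 2 were higher, and the sum was 23.9 to 58.1 CPM in DDR2-plus libraries and 10.2 to 26.1 CPM in PSC libraries. Of 6 endothelial markers, 3 were higher and 2 lower, with a sum of 23.7 to 60.0 CPM in DDR2-plus libraries and 18 to 41.2 CPM in PSC libraries.

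All 9 markers of neurons, pineal cells and glia were higher in DDR2-plus. Their sum was 268.8 to 673.5 CPM in DDR2-plus libraries and 5.61 to 23.4 CPM in PSC libraries, and Slc17a6 had 0 counts in PSC libraries. Rbp3, a retinoid-binding protein of photoreceptors and pineal cells, was at 53.4 ± 19.8 CPM in DDR2-plus (SD, n = 5). The short marker sets of the bone lineage hold some of the 9 genes themselves and so are not separate from them. The 6 osteoblast markers, with Bglap and Ibsp among them, summed to 24793 to 45157 CPM in DDR2-plus libraries and 134580 to 156294 CPM in PSC libraries. Col1a1 made up 29118 ± 6849 CPM of this sum in DDR2-plus and 137874 ± 8114 CPM in PSC. Of the 6 osteoblast markers, 4 were lower in DDR2-plus, and 2, Runx2 and Alpl, did not pass the test. The 5 osteocyte markers, with Dmp1 and Mepe among them, summed to 399.1 to 1015 CPM in DDR2-plus libraries and 1619 to 2750 CPM in PSC libraries.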
